A study of Oryza sativa with 4 samples.

Results

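The comparison described is that of rice leaves after 1 d without water (1 d) with leaves of well-watered plants (control), taken gene by gene. The members are the loci of the rice gene table that had at least 50 reads in the 1 d and control libraries together, with the transcript that had the most reads standing for its locus. Of 37869 loci, 26159 (69.1%) were members, 8195 had 1 to 49 reads and 3515 had no read in either library. The plants were wild type Oryza sativa, ecotype Illmi (spelled Ilmi elsewhere in the study's own text), 5 weeks old and grown in a greenhouse. At 1 d the soil moisture was 40%, and for the control it was 75%. The series also holds libraries of 2 d and 3 d without water, which are used below only to show how the members of the first day stood later. Each library was made from leaves of several whole plants pooled before RNA extraction, so there was 1 library per condition and no difference has a replicate check. The control leaves were collected before water was withheld, so drought and the day of sampling changed together and cannot be told apart. The time of day of sampling was not given in the sources used here.

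When soil starts to dry, leaves roll, the hormone abscisic acid (ABA) accumulates and stomata close. ABA switches on genes for protective proteins such as late embryogenesis abundant (LEA) proteins and dehydrins, which keep other proteins and membranes intact as water is lost. A further set of transcription factors, the DREB, WRKY, NAC and other AP2/ERF families, together with jasmonate, ethylene, cytokinin and calcium signalling, answers stress within minutes to hours, and many of these genes are short-lived in their expression.

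The 1 d library had 52626188 reads mapped to genes and the control library 56727328, so the total at 1 d was 7.23% below that of the control. Read counts were divided by the library total and given per 1000000 reads (CPM), and the ratio of 1 d to control was taken on the log2 scale. A locus was called higher or lower in 1 d leaves when this ratio was at least 1 or at most −1, which is a change of 2-fold. Ratios are followed by exact 95% intervals in parentheses, made from the Clopper-Pearson interval of the 1 d share of a locus's reads, and these cover counting error only. The leaf markers were at like levels, with a summed level of 5136 CPM at 1 d and 5207 CPM in the control for the Rubisco small subunit loci, and of 13817 and 13420 CPM for the chlorophyll a/b-binding protein loci. Markers of seed, pollen and root showed no common direction. The summed level of 20 glutelin loci was 185 CPM at 1 d and 175 CPM in the control, that of 30 prolamin loci was 52.4 and 51.3 CPM, and that of 7 oleosin loci was 0.133 and 0.0705 CPM. The 13 pollen allergen loci summed to 3.53 CPM at 1 d and 9.70 CPM in the control, the 5 root cap loci to 20.03 and 15.4 CPM, and the 3 root-specific loci to 0.513 and 0.546 CPM, and 4 RCc3 root loci had no reads. In whole leaves, fewer cells of a type and less RNA per cell cannot be told apart.

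A small part of the leaf transcriptome differed from the control at 1 d. Of the 26159 members, 612 (2.34%) were called higher and 726 (2.78%) lower in 1 d leaves. The median log2 ratio was 0.02, with quartiles of −0.17 and 0.24, and 85.5% of members lay within 1.5-fold of the control. Large changes were more often falls than rises. At least 4-fold changes were seen in 49 higher and 179 lower loci, and at least 8-fold changes in 9 higher and 71 lower loci. Loci called higher had a median of 96 reads at 1 d and 42 in the control. Loci called lower had a median of 67.5 reads at 1 d and 280 in the control. The summed level of the lower loci was 4378 CPM at 1 d and 12911 CPM in the control, and that of the higher loci was 8271 CPM at 1 d and 3565 CPM in the control. Without scaling to the library totals every ratio moves by −0.11 and the median of all members to −0.09. The calls are then 470 higher and 920 lower, so that 33.8% of the called loci are higher, against 45.7% with scaling.

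**Figure D1:**
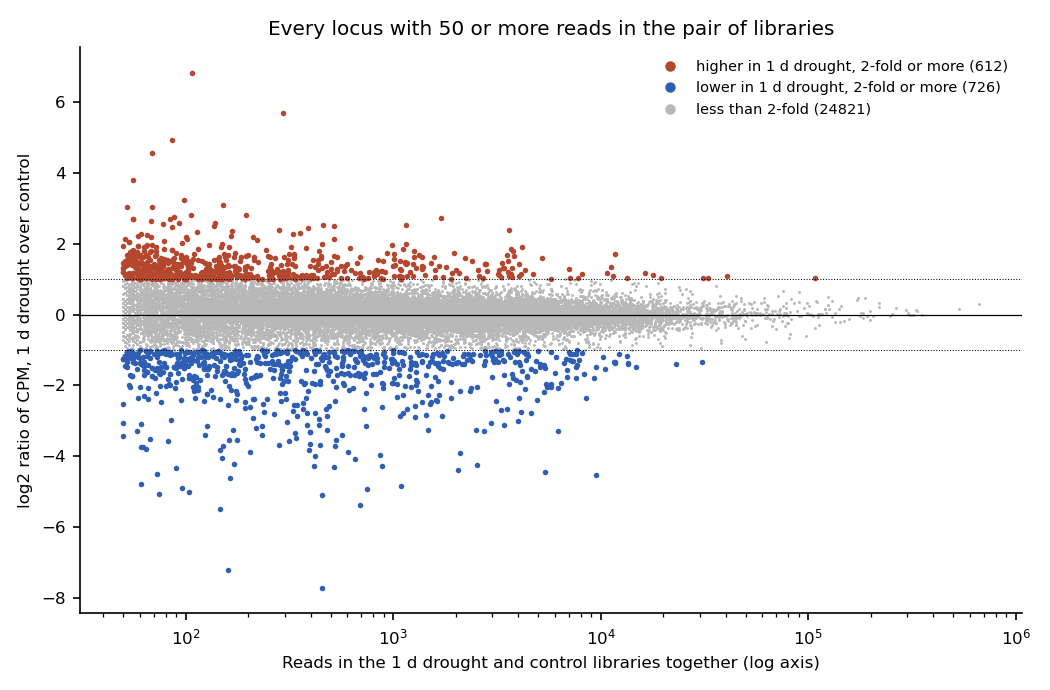
Each point is a member locus, with the reads of the 1 d and control libraries together on the x axis (log scale) and the log2 ratio of CPM, 1 d over control, on the y axis. Dotted lines mark 2-fold, and a count of 0 is drawn as 3 reads. The 612 higher loci crowd at low depth, whereas the 726 lower loci reach down to −7.71 (a locus with 2 reads at 1 d) and spread to higher depth.

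How many loci passed 2-fold depended on depth. Of 4690 members with 50 to 199 reads, 376 were called higher and 282 lower, and the counting interval of a ratio reached 0.60 to either side at the median. Of 12381 members with 1000 to 9999 reads, 85 were called higher and 197 lower, with a counting interval of 0.11 to either side. Thus, higher loci outnumbered lower loci only in the thinnest class, and in the classes between 200 and 9999 reads there were more falls than rises. Among the 1697 members with 10000 or more reads, 12 were called higher and 12 lower. For all 1338 called loci the counting interval lay on 1 side of no change, which the read minimum and the 2-fold limit together already ensure. It lay wholly past 2-fold for 199 of the higher and 418 of the lower loci. At the read limit itself, 271 members had 50 to 54 reads and 300 loci that were left out had 45 to 49.

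The rises that stood out as a group were those of the list of LEA proteins and dehydrins, which also held some other stress proteins. Of 38 member loci of this list, 13 (34.2%) were called higher and 2 (5.26%) lower, with a median of 0.21 beside 0.02 over all members. The dehydrin RAB 16B (Os11g0454200) had 741 reads at 1 d and 268 in the control, a log2 ratio of 1.58 (1.37 to 1.78). Its neighbours on chromosome 11, dehydrin RAB 16C (Os11g0454000) and the water-stress inducible protein RAB21 (Os11g0454300), were called higher as well, and the 3 loci together had 2241 reads at 1 d and 940 in the control (1.36, 1.25 to 1.47). Dehydrins are hydrophilic proteins that bind to membranes and proteins in drying cells. A group 3 LEA protein (Os05g0542500) had 995 reads at 1 d and 331 in the control (1.70), and the LEA repeat protein Os03g0322900 had 134 and 31 (2.22, 1.65 to 2.83). The 13 rises also counted loci annotated neither as LEA proteins nor as dehydrins. They were an HVA22-like protein (Os02g0747500, 1.24) and proteins named after cold. A low-temperature induced protein like lt101.2 (Os03g0286900) had 317 reads at 1 d and 118 in the control, and another (Os05g0122700) had 61 and 26. A homologue of the cold-regulated WCOR719 (Os03g0820500) had 1098 and 429. RAB 16B stood at 14.1 CPM at 1 d and 4.72 CPM in the control, and at 689 CPM at 2 d and 1768 CPM at 3 d, so its level at 1 d was a small part of that reached later. Dip1 (Os02g0669100), a dehydrin that the study used as a drought marker, had 4810 reads at 1 d and 2832 in the control, a ratio of 0.87 (0.81 to 0.94) that did not reach 2-fold. A LEA 3 family protein (Os01g0314800) went the other way, with 1053 reads at 1 d and 2599 in the control (−1.20), and so did a LEA-18 domain protein (Os09g0482550), with 194 and 535 (−1.36).

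Of 4 members of ABA synthesis and breakdown, 1 locus of synthesis was called higher, 1 of breakdown lower and 2 neither. The step that limits ABA synthesis is made by 9-cis-epoxycarotenoid dioxygenase, for which Viviparous-14 of maize is the type. Of the rice loci annotated as similar to it, Os07g0154100 had 820 reads at 1 d and 385 in the control, a log2 ratio of 1.20 (1.02 to 1.38), whereas Os12g0617400 had 188 and 349 (−0.79). ABA 8′-hydroxylase 1 (Os02g0703600), which starts the breakdown of ABA, had 118 reads at 1 d and 2415 in the control (−4.25, −4.53 to −3.98) and was among the deepest falls of the day. Its level of 2.24 CPM at 1 d, against 42.6 CPM in the control, was followed by 50.8 CPM at 2 d and 50.1 CPM at 3 d. Zeaxanthin epoxidase (Os04g0448900), an earlier enzyme of the pathway, had 24009 reads at 1 d and 25777 in the control (0.01). Protein phosphatases 2C, several of which hold ABA signalling in check, showed no call in either direction among 52 members, with a median of −0.07 and a range of −0.84 to 0.85. At the shares over all members, 2.34% higher and 2.78% lower, a list of this size holds few calls in any case. Both loci for delta 1-pyrroline-5-carboxylate synthetase, the enzyme that limits proline synthesis, stayed near the control, as Os05g0455500 had 1983 reads at 1 d and 2104 in the control.

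**Figure D2:**
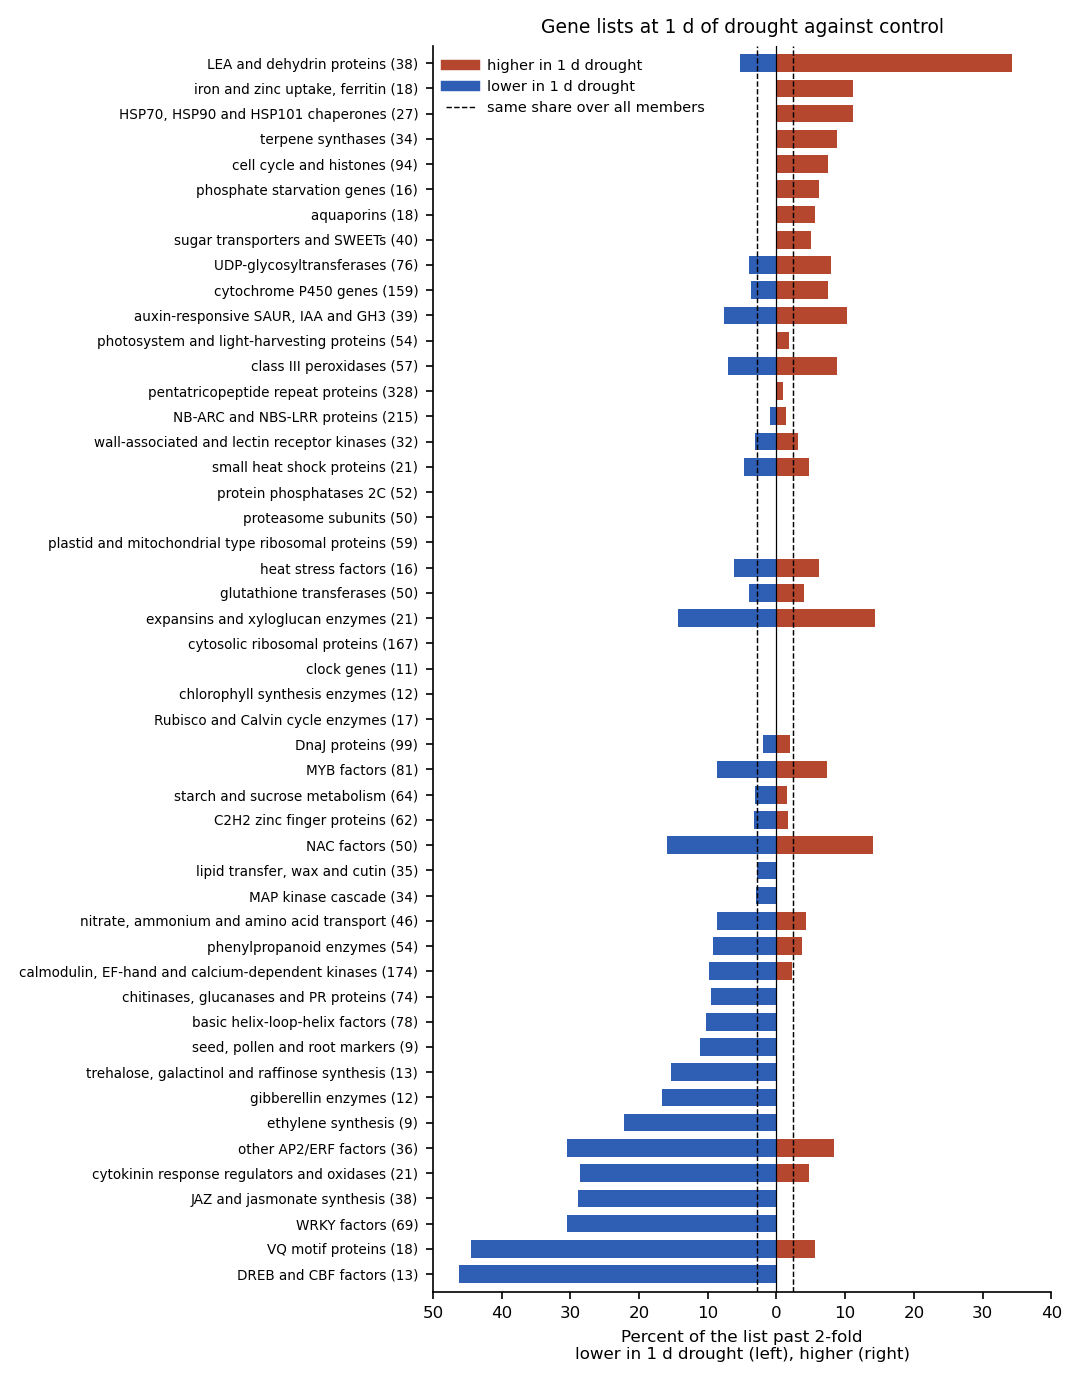
Shares of 49 gene lists, each with at least 9 members (number in parentheses), that were called higher (red, to the right) or lower (blue, to the left) in 1 d leaves, in percent. Dashed lines mark the shares over all members, 2.34% and 2.78%. The LEA and dehydrin list, which also holds some other stress proteins, leads on the right with 34.2%. DREB and CBF factors (46.2%) and VQ motif proteins (44.4%) lead on the left.

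Several of the deepest falls of the day were in regulators. DREB1 proteins, also named CBF, bind a short promoter element and switch on genes of cold and water loss. Of 13 DREB and CBF members, 6 (46.2%) were called lower and 0 higher, with a median of −0.80. All 6 were of the DREB1 or CBF kind. A locus annotated as similar to CRT/DRE binding factor 1 (Os02g0677300) had 2 reads at 1 d and 452 in the control (−7.71, −10.76 to −5.85). DREB1B (Os09g0522000) had 12 and 443 (−5.10), and DREB1A (Os09g0522200) had 34 and 1057 (−4.85). The locus annotated as similar to DREB1E (Os02g0676800) had 2 reads at 1 d and 72 in the control (−5.06). That annotated as similar to DREB1H (Os09g0522100) had 5 and 53 (−3.30). A CRT/DRE binding factor 1 locus on chromosome 4 (Os04g0572400) had no read at 1 d and 96 in the control, at least 29.7-fold lower with the 0 taken as 3 reads. Together the 3 neighbouring loci on chromosome 9 for DREB1B, DREB1H and DREB1A had 51 reads at 1 d and 1553 in the control (−4.82, −5.25 to −4.42). The loci named after DREB2 moved less. DREB2B (Os02g0752800) had 5955 reads at 1 d and 8639 in the control (−0.43), and DREB2F (Os04g0648900) had 1152 and 837 (0.57). DREB1C (Os06g0127100), which had 96 and 159, was not called either. These names are those of the annotation and need not be the names of the rice genes. A homologue of ICE1 (Os01g0705700), a factor that switches on CBF genes in Arabidopsis, had 50 reads at 1 d and 370 in the control (−2.78, −3.24 to −2.35).

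Falls were also common in other AP2/ERF factors, the family of ethylene response factors. Of 36 members, 11 (30.6%) were called lower and 3 (8.33%) higher, with a median of −0.27. Among 3 loci annotated as similar to RAP2.6 that fell, Os08g0474000 had no read at 1 d and 146 in the control (at least 45.1-fold lower), Os09g0457900 had 10 and 142 (−3.72), and Os04g0610400 had 131 and 1339 (−3.25). A further locus with that annotation (Os03g0183000) was higher, with 59 reads at 1 d and 29 in the control. An AP2/ERF protein annotated with abiotic stress response (Os02g0654700) had 164 reads at 1 d and 1267 in the control (−2.84). Of 9 ethylene synthesis members, 8 lay below 0, with a median of −0.82. They include ACC synthase, which makes the ethylene precursor, and ACC oxidase, which turns it into ethylene. Only 1 locus of each was called, the ACC synthase Os04g0578000 with 18 reads at 1 d and 56 in the control, and the ACC oxidase Os01g0580500 with 17 and 52.

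WRKY factors, which act mainly in defence and wound responses, gave the largest number of lower loci of all 52 lists. Of 69 members, 21 (30.4%) were called lower and 0 higher, and the median was −0.30. The deepest were Os01g0821600, with 221 reads at 1 d and 2272 in the control (−3.25), and Os02g0181300, with 415 and 3568 (7.98-fold lower). WRKY53 (Os05g0343400), which had the most control reads of the list, had 6010 reads at 1 d and 17001 in the control (−1.39, −1.44 to −1.35). Proteins with a VQ motif, which bind WRKY factors in Arabidopsis, showed the same direction. Of 18 members, 8 (44.4%) were called lower and 1 (5.56%) higher, with a median of −0.70, and this list was added after values had been seen. The VQ locus Os06g0666400 had 983 reads at 1 d and 3173 in the control (−1.58), whereas Os06g0618700 had 2398 and 1210 (1.10).

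**Figure D3:**
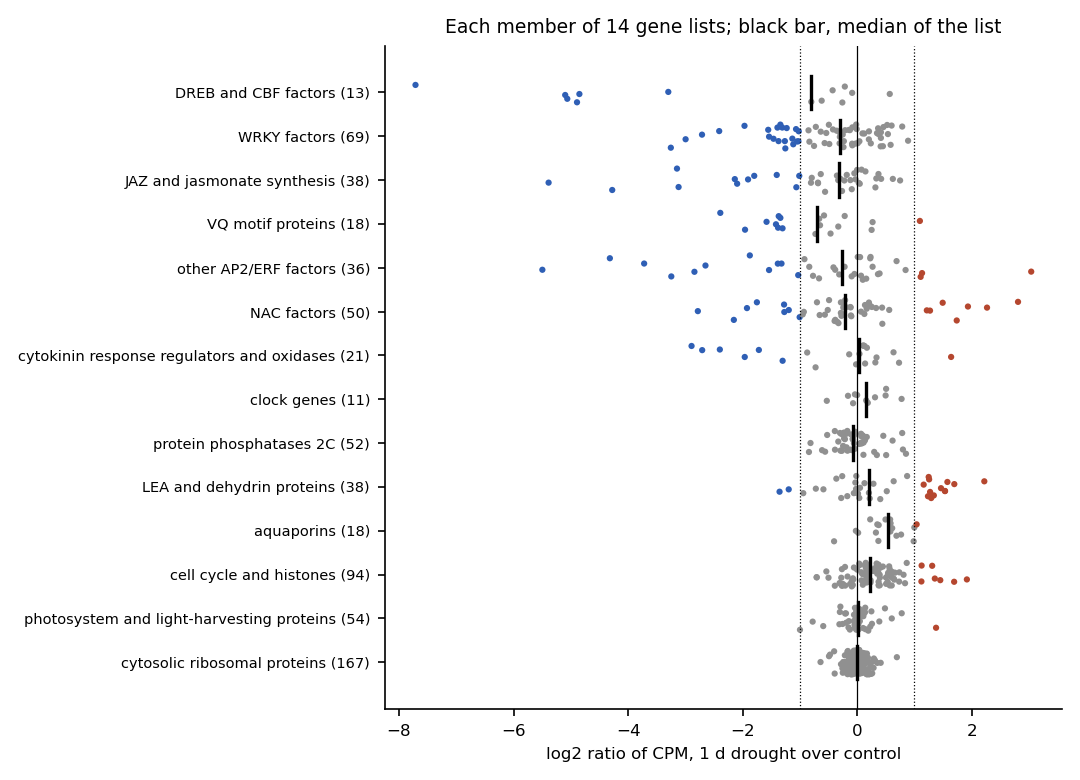
Log2 ratio of CPM, 1 d over control, of each member of 14 gene lists, with the number of members in parentheses. Red points were called higher, blue points lower, and grey points neither; black bars are list medians, dotted lines mark 2-fold, and a count of 0 is drawn as 3 reads. In the DREB, WRKY and jasmonate lists the calls lie on the left only, the LEA list reaches to 2.22 on the right, and the 167 cytosolic ribosomal protein loci cluster around 0.

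Jasmonate genes that fell included repressors and synthesis enzymes. Of 38 members of this list, 11 (28.9%) were called lower, 0 higher and 27 neither, with a median of −0.31, and the summed level of the list was 3894 CPM at 1 d and 3970 CPM in the control. JAZ proteins carry the Tify domain and repress jasmonate responses, and their genes are themselves switched on by the hormone. Of 15 member loci with a Tify or ZIM annotation, 6 were called lower and 11 lay below 0. Os03g0181100 had 331 reads at 1 d and 3098 in the control (−3.12), Os03g0180800 had 70 and 668 (−3.15), and Os10g0392400 had 770 and 3548 (−2.10). The 15 loci summed to 429 CPM at 1 d and 792 CPM in the control, and to 1214 CPM at 2 d and 2020 CPM at 3 d. Among synthesis enzymes, an allene oxide synthase (Os03g0767000) had 213 reads at 1 d and 798 in the control (−1.80), a lipoxygenase (Os04g0447100) had 378 and 1526 (−1.91), and a 12-oxophytodienoic acid reductase (Os06g0215900) had 23 and 109 (−2.14). Another lipoxygenase, Os12g0559200, moved the other way without reaching 2-fold, with 118785 reads at 1 d and 101555 in the control (0.33).

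Calcium carries many of the same stress signals, and more of its sensors were called lower than higher. Of 174 calmodulin, EF-hand and calcium-dependent kinase members, 17 (9.77%) were called lower and 4 (2.30%) higher, with a median of −0.06. The EF-hand protein CCD1 (Os06g0683400) had 238 reads at 1 d and 2509 in the control (−3.29), and a calmodulin-like protein (Os09g0412300) had 297 and 2658 (−3.05). EFA27 (Os04g0511200), an EF-hand protein named for its induction by ABA, was the highest of the list with 935 reads at 1 d and 324 in the control (1.64). In the MAP kinase cascade, 1 of 34 members was called lower (2.94%, beside 2.78% of all members) and 0 higher. It was the MAP kinase Os03g0285800, with 212 reads at 1 d and 925 in the control (−2.02). Two-component signalling by cytokinin fell in its negative regulators. A-type response regulators are short proteins that cytokinin induces and that damp its signal. All 6 loci with this annotation lay below 0 and 5 were called lower, with 3850 reads at 1 d and 16666 in the control (−2.01, −2.06 to −1.96). Of these, Os11g0143300 had 412 reads at 1 d and 2898 in the control (−2.71), and Os12g0139400 had 740 and 4204 (−2.40). A homologue of the maize type-A regulator RR4 (Os04g0494400), annotated in other words, had 7866 and 7892 (0.10). The 5 loci annotated as B-type regulators, which carry the signal to genes, lay between −0.14 and 0.63. A locus annotated only as similar to the response regulator ARR11 (Os01g0971800) had 1021 reads at 1 d and 353 in the control (1.64, 1.46 to 1.82). It was the 1 higher call among the 21 members of the list of cytokinin response regulators and oxidases, beside 6 lower.

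Other deep falls were seen at loci outside the lists described so far, and the pathways of these loci were not assigned. A helix-loop-helix protein (Os04g0301500) had 364 reads at 1 d and 9094 in the control (−4.53, −4.69 to −4.38), or 6.92 CPM at 1 d and 160 CPM in the control. It was the deepest of 8 lower loci among 78 basic helix-loop-helix members, none of which was called higher; this list too was added after values had been seen. An amino acid transporter (Os01g0597600) had 218 reads at 1 d and 5157 in the control (−4.46), and another (Os11g0298000) had 9 and 138 (−3.83). Neighbouring serine/threonine kinases on chromosome 1 fell together, as Os01g0699600 had 22 reads at 1 d and 724 in the control (−4.93) and Os01g0699500 had 48 and 811 (−3.97). A cytochrome P450 (Os11g0151400) had 40 reads at 1 d and 842 in the control (−4.29), and a remorin (Os03g0111200), a protein of plasma membrane domains, had 12 and 191 (−3.88). EL5 is a RING-type ubiquitin ligase that rice cells induce in response to chitin fragments. Of 7 EL5 loci on chromosome 2, 6 were called lower, at ratios of −3.31 to −4.0, and the 7 had 241 reads at 1 d and 2329 in the control (−3.16). These 6 had 363 to 416 reads each in the control and may be near-identical copies that share reads, so their number is uncertain.

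**Figure D4:**
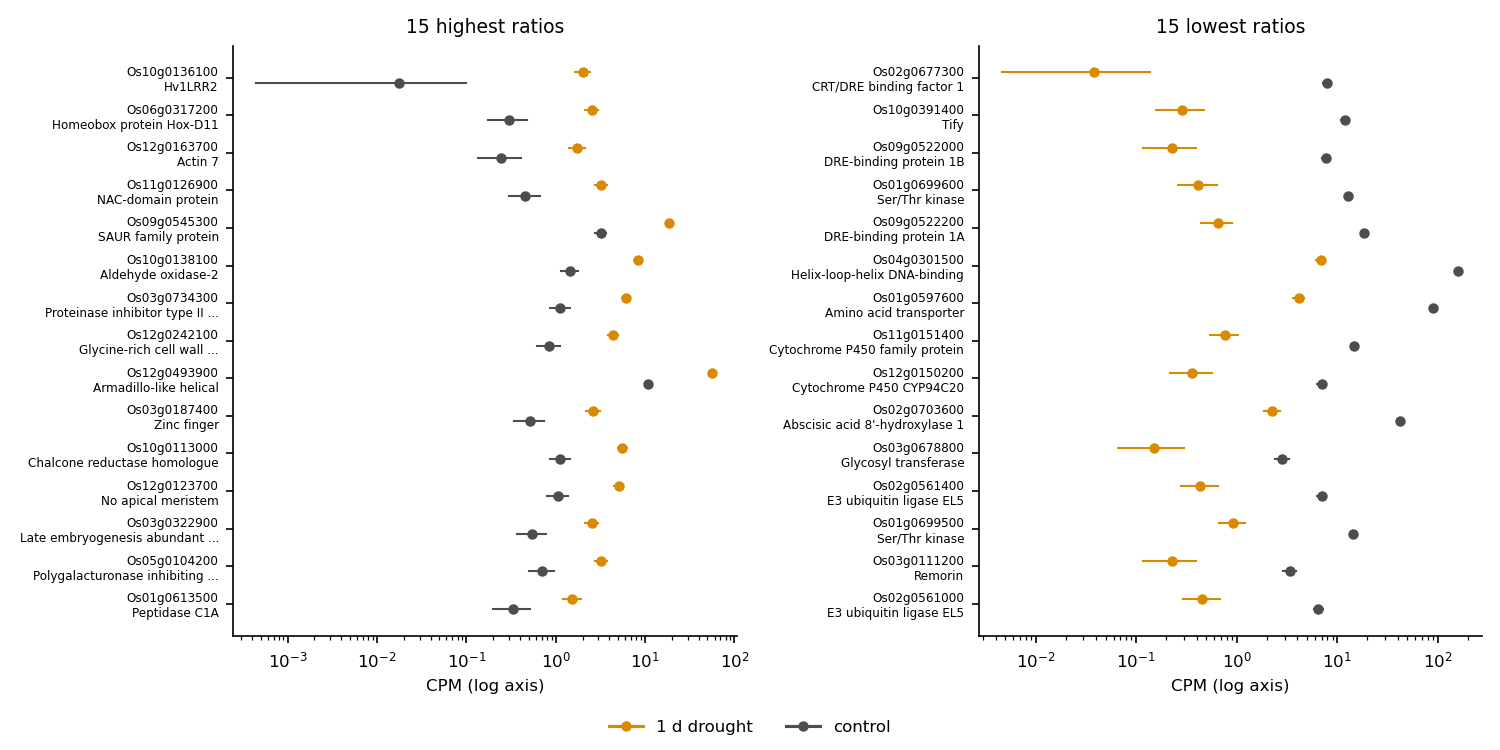
Level in CPM (log axis) of the 15 highest (left) and the 15 lowest (right) ratios among loci with an annotated protein, at least 100 reads in the pair of libraries and reads in both. Orange points are 1 d and grey points control, and bars are exact 95% Poisson intervals of each count. In the left panel the intervals of Os10g0136100 lie far apart with 106 reads at 1 d and 1 in the control, and in the right panel Os04g0301500 has the highest control level, 160 CPM.

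Cell wall and sugar enzymes included further falls. Of 21 expansin and xyloglucan enzyme members, which loosen and remodel the wall as cells grow, 3 were called higher and 3 lower. A xyloglucan endotransglycosylase (Os06g0696600) had 899 reads at 1 d and 4403 in the control (−2.18), and an XTH24 homologue (Os04g0604300) had none at 1 d and 73 in the control, at least 22.6-fold lower. The expansin-like protein A locus (Os03g0132200) went the other way, with 2157 reads at 1 d and 1063 in the control (1.13). Phi-1 (Os02g0757100), a phosphate-induced protein, had no read at 1 d and 104 in the control, at least 32.2-fold lower. Trehalose-6-phosphate phosphatase, which makes the sugar trehalose, was lower at Os02g0661100, with 199 reads at 1 d and 1176 in the control (−2.45), and at Os02g0753000, with 9 and 76 (−2.97). The other 11 members of trehalose, galactinol and raffinose synthesis were not called, and the median of the 13 was 0.23. Of 74 chitinase, glucanase and pathogenesis-related members 7 (9.46%) were called lower and 0 higher. Among them PRB1-2 (Os01g0382000) had 2537 reads at 1 d and 7968 in the control (−1.54).

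NAC factors split. Of 50 members, 7 (14%) were called higher and 8 (16%) lower, with a median of −0.22. On the higher side, Os12g0123700 had 268 reads at 1 d and 60 in the control (2.27, 1.86 to 2.70), and Os07g0684800 had 820 and 314 (1.49). On the lower side, Os01g0816100 had 133 reads at 1 d and 986 in the control (−2.78), and Os01g0862800 had 361 and 1731 (−2.15). Os12g0123700 stood at 263 CPM at 2 d, against 5.09 CPM at 1 d and 1.06 CPM in the control, whereas Os01g0816100 stood at 10.4 CPM at 2 d, against 2.53 CPM at 1 d and 17.4 CPM in the control. MYB factors split as well, with 6 higher and 7 lower of 81. A MYB-like factor (Os12g0564100) had 53 reads at 1 d and 12 in the control (2.25), and a SANT/MYB protein (Os05g0567600) had 46 and 288 (−2.54). C2H2 zinc finger proteins had 1 higher (1.61%) and 2 lower (3.23%) of 62, near the shares over all members (2.34% and 2.78%). The deepest was Os03g0437200, with 6 reads at 1 d and 76 in the control (−3.55).

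Rises outside the LEA list were spread over many functions, and several were larger than the highest ratio of that list (2.22). The highest ratio with an annotated protein was that of Os10g0136100, similar to Hv1LRR2, with 106 reads at 1 d and 1 in the control (6.84, 4.33 to 12.15). An SAUR protein annotated as a negative regulator of auxin synthesis and transport (Os09g0545300) had 967 reads at 1 d and 181 in the control (2.53, 2.30 to 2.76). An armadillo-like protein (Os12g0493900) had 2987 reads at 1 d and 617 in the control (2.38), and fell to 2 reads at 2 d and 14 at 3 d. Proteinase inhibitor CEVI57 (Os03g0734300) had 325 reads at 1 d and 64 in the control (2.45), and aldehyde oxidase-2 (Os10g0138100) had 434 and 82 (2.51). A hypothetical gene (Os05g0195901) had 86 reads at 1 d and none in the control, at least 30.9-fold higher, and none at 2 d or 3 d. By list, 12 (7.55%) of 159 cytochrome P450 members were higher and 6 (3.77%) lower, and 6 of 76 UDP-glycosyltransferases were higher and 3 lower. A terpene synthase (Os03g0347900) had 5450 reads at 1 d and 2632 in the control (1.16) and was 1 of 3 higher and 0 lower among 34.

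The peroxidase, phenylpropanoid and auxin lists each held members past 2-fold in both directions. Of 57 class III peroxidase members, which act on wall phenolics and peroxide, 5 (8.77%) were called higher and 4 (7.02%) lower, with a median of 0.06. The peroxidase Os04g0688300 had 702 reads at 1 d and 228 in the control (1.73), and Os07g0677500 had 156 and 537 (−1.68). Among 54 phenylpropanoid members, 2 were higher and 5 lower. A chalcone isomerase domain protein (Os06g0203600), of the flavonoid branch, had 402 reads at 1 d and 1943 in the control (−2.16), and a chalcone reductase homologue (Os10g0113000) had 292 and 64 (2.30). In the auxin list 4 of 39 members were higher and 3 lower. Besides the SAUR locus above, a locus annotated as similar to IAA12 (Os02g0805100) had 91 reads at 1 d and 39 in the control (1.33). A SAUR locus on chromosome 1 (Os01g0768333) had 21 and 114 (−2.33). Gibberellin 20 oxidase 2 (Os08g0560000), an enzyme of gibberellin synthesis, had 157 reads at 1 d and 414 in the control (−1.29) and was 1 of 2 lower loci among 12. Of 16 heat stress factors, Os01g0571300 was higher, with 81 reads at 1 d and 20 in the control (2.13), and Spl7 (Os05g0530400) was lower, with 641 and 1538 (−1.15). Glutathione transferases had 2 higher and 2 lower of 50 (4% each), and starch and sucrose metabolism 1 higher (1.6%) and 2 lower (3.1%) of 64. Over all members the shares were 2.34% and 2.78%, so neither list stood apart by its counts. Granule-bound starch synthase Ib (Os07g0412100), which makes amylose, had 2976 reads at 1 d and 7294 in the control (−1.19). Nicotianamine synthase 3 (Os07g0689600), whose product chelates iron, had 195 reads at 1 d and 91 in the control (1.21), and the purple acid phosphatase PAP18 (Os11g0151800) had 48 and 16 (1.69). A fatty acid elongase (Os02g0205500) had 330 reads at 1 d and 1311 in the control (−1.88), the 1 call among 35 lipid transfer, wax and cutin members.

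Most water channel members lay above the control, but 1 passed 2-fold. Of 18 aquaporin members 16 lay above 0, beside 53.4% of all members, and 1 (5.56%) was called higher, with a median of 0.54, the highest median of the lists with at least 9 members. Tonoplast intrinsic proteins, which let water pass into the vacuole, had the largest ratios. Os05g0231700 had 12759 reads at 1 d and 6696 in the control (1.04, 1.00 to 1.08), the 1 member called, and it is not called without scaling. Os05g0231600 had 3564 reads at 1 d and 1923 in the control (1.00 when rounded, but just under the limit), and Os03g0146100 had 7265 and 3953 (0.99). The plasma membrane aquaporin PIP1.1 (Os04g0559700) had 9611 reads at 1 d and 8119 in the control (0.35). Os06g0228200 of the NIP III subfamily lay below 0, with 1290 reads at 1 d and 1839 in the control (−0.40). The list summed to 1756 CPM at 1 d and 1244 CPM in the control.

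Genes of chromatin and division included some rises. Of 94 cell cycle and histone members, 7 (7.45%) were called higher, 0 lower and 87 neither, and 71 lay above 0, with a median of 0.22. Histone H1 loci, whose product packs DNA between nucleosomes, were among those called. Os04g0253000 had 11955 reads at 1 d and 5922 in the control (1.12), and Os07g0184800 had 2378 and 1034 (1.31). The adjoining locus Os07g0184850 has the same annotation and may share reads. Replication factor mcm4 (Os01g0544450) had 49 reads at 1 d and 14 in the control (1.92). The rise at Os07g0184800 did not last, since it stood at 45.2 CPM at 1 d, against 18.2 CPM in the control, and at 3.02 CPM at 2 d and 0.492 CPM at 3 d. Among chaperones, 3 of 27 HSP70, HSP90 and HSP101 members were higher and 0 lower. DnaJ proteins, the partners of HSP70, had 2 higher and 2 lower of 99 (2.02% each, beside 2.34% and 2.78% over all members). Their median was −0.06, in a list added after values had been seen. The dnaJ locus Os06g0716100 had 8801 reads at 1 d and 2871 in the control (1.72, 1.66 to 1.79), whereas Os07g0443500 had 12 and 150 (−3.54) and Os08g0452900 had 179 and 617 (−1.68). Small heat shock proteins had 1 higher and 1 lower of 21 (4.76% each), with a median of −0.06. Ferritin 1 (Os12g0106000), which stores iron in the chloroplast, had 7274 reads at 1 d and 3493 in the control (1.17). A sugar transporter of the MtN3 (SWEET) kind (Os02g0513100) had 186 reads at 1 d and 64 in the control (1.65), and a beta-amylase (Os10g0465700), which breaks down starch, had 1733 and 654 (1.51).

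**Figure D5:**
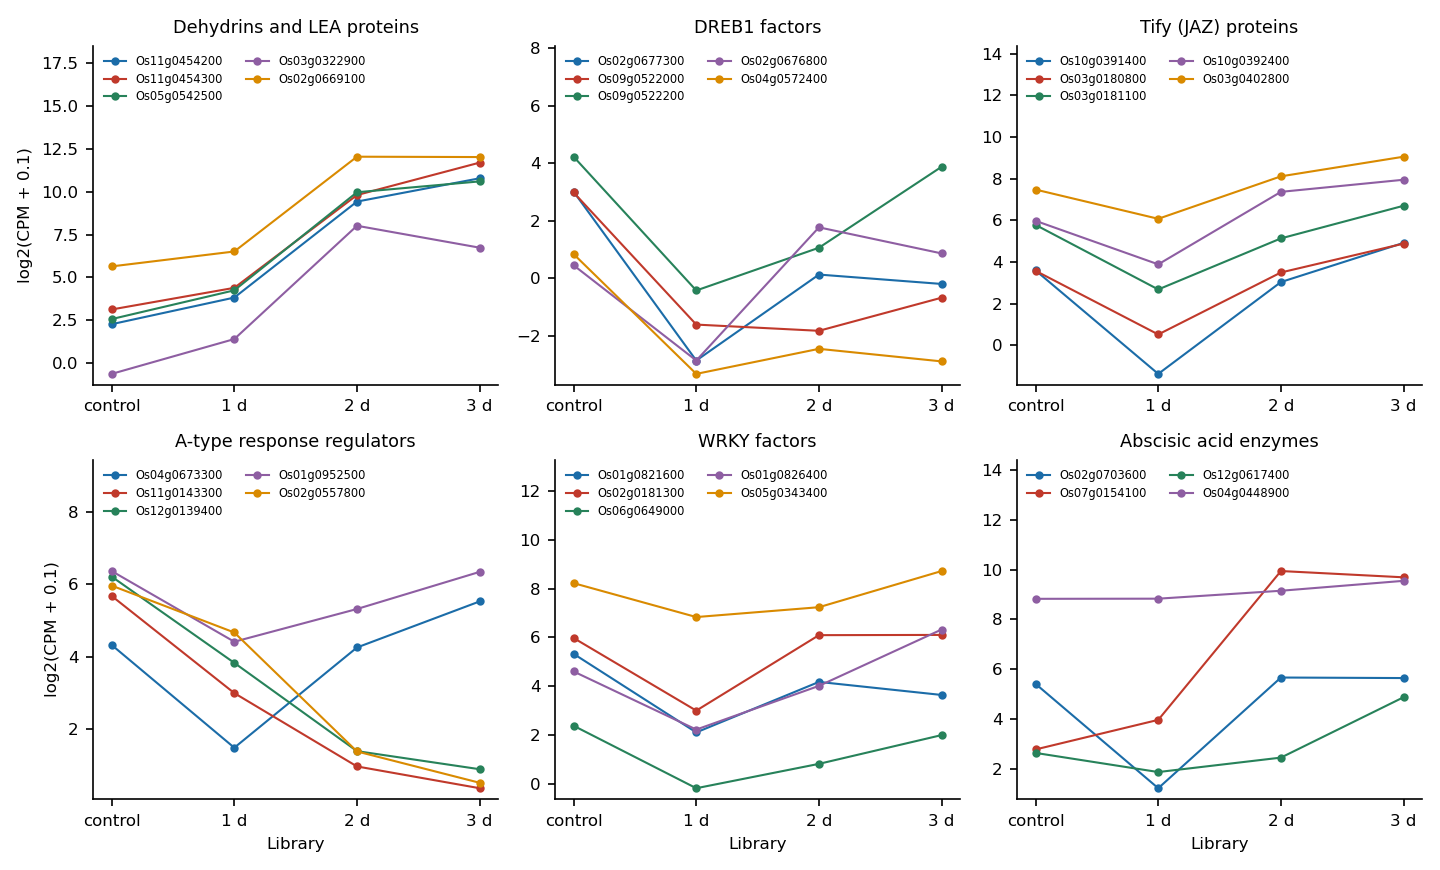
Level of single loci, as log2(CPM + 0.1), in the control, 1 d, 2 d and 3 d libraries, in 6 panels by gene group. Lines join the libraries and stand for no replicate. The dehydrins and LEA proteins lie above the control at 1 d and far above it later, whereas the Tify loci are lowest at 1 d, and the ABA 8′-hydroxylase Os02g0703600 dips at 1 d only.

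Few members of the photosynthesis, ribosome and proteasome lists were called. Of 54 photosystem and light-harvesting members, 1 was called higher and 0 lower, with a median of 0.01, and the locus called was the 22 kDa protein of photosystem II (Os04g0690800), which dissipates excess light, with 282 reads at 1 d and 117 in the control (1.38). RbcS1 (Os12g0274700), the other marker gene of the study, had 67264 reads at 1 d and 82272 in the control (−0.18, −0.20 to −0.17). None of 17 Rubisco and Calvin cycle members was called, but Rubisco activase Os11g0707000 had 22048 reads at 1 d and 40743 in the control (−0.78). There was no call among 12 chlorophyll synthesis members (median −0.14), 167 cytosolic ribosomal proteins (median 0.00), 59 plastid and mitochondrial type ribosomal proteins (median −0.06) or 50 proteasome subunits (median −0.08). With 2.34% of all members called higher and 2.78% lower, a list of 17 or 12 members can hold no call without standing apart from the rest. At 50 to 59 members such shares also give few calls, so the 0 or 1 called there says little about those lists. Of 75 members of the term ubiquitin-protein ligase activity, 9 (12%) were lower and 3 (4%) higher. This term may include the EL5 loci above, which may share reads, so the share that fell is uncertain. Of 328 pentatricopeptide repeat members 3 were called, and of 215 NB-ARC and NBS-LRR members 5. The 11 clock gene members, too few for the absence of a call to stand apart, lay between −0.53 and 0.78, with a median of 0.16. The list was made from words of the annotation, so clock genes annotated in other words are not in it and may have been called. GIGANTEA (Os01g0182600) had 61463 reads at 1 d and 59395 in the control (0.16). TIMING OF CAB 1 (Os02g0148500), which peaks at dusk, had 2558 and 3081 (−0.16). A locus named after LHY (Os04g0583900), a gene that peaks at dawn, had only 89 and 68 (0.50), and its own daily course was not measured. Whether the hour of sampling took part in the other changes was not tested.

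Abundant transcripts accounted for the largest gains and losses in CPM with small ratios. Ribonuclease T2 (Os09g0537700) had 70646 reads at 1 d and 37236 in the control (1.03, 1.01 to 1.05) and falls under 2-fold without scaling. A homologue of the desiccation-associated lily protein LLA23 (Os11g0167800) had 97680 reads at 1 d and 76609 in the control (0.46), and a thiazole biosynthetic enzyme (Os07g0529600), which acts in thiamine synthesis, had 106453 and 82003 (0.48). On the losing side, chloroplast fructose-bisphosphate aldolase (Os11g0171300) had 37098 reads at 1 d and 60234 in the control (−0.59), a thaumatin-like protein (Os12g0628600) had 30149 and 50878 (−0.65), and NADH-dependent glutamate synthase (Os05g0555600) had 31748 and 49775 (−0.54). An SGNH hydrolase (Os06g0157000) was the 1 loss of this kind that passed 2-fold, with 8267 reads at 1 d and 22628 in the control (−1.34).

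Called loci often lay side by side. The next member along the chromosome was called the same way for 70 of 611 higher loci (11.5%) and for 118 of 726 lower loci (16.3%), beside shares of 2.34% and 2.78% over all members. Runs of at least 3 neighbours numbered 7 among higher loci, with 24 loci and at most 5 in a run, and 16 among lower loci, with 50 loci and at most 4. The runs included the dehydrins on chromosome 11, the DREB1 loci on chromosome 9, EL5 loci on chromosome 2, WRKY loci on chromosome 11 (Os11g0117400 to Os11g0117500, 1260 reads at 1 d and 3331 in the control), and a run on chromosome 6 (Os06g0696600 to Os06g0697000) with a pair of xyloglucan enzymes, 1033 reads at 1 d and 5212 in the control. Tandem copies and overlapping loci can share reads, and use of strand by the counting step was not given in the sources used here, so neighbours are not independent observations. By chromosome, the share called higher ran between 1.61% (chromosome 2) and 3.23% (chromosome 10), and the share called lower between 1.54% (chromosome 12) and 3.47% (chromosome 2).

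The gene ontology terms that the table carries are broader than the lists. Among 222 terms with at least 20 members, the largest share of falls was in two-component response regulator activity, with 5 of 20 members lower (25%) and 0 higher. Sequence-specific DNA binding transcription factor activity had 40 of 332 members lower (12%) and 8 higher (2.41%), although its median was 0.01. Aspartic-type endopeptidase activity had 9 of 60 lower (15%) and 0 higher. Response to stress had 7 of 53 members higher (13.2%) and 2 lower, and nucleosome had 4 of 47 higher (8.51%) and 0 lower, with a median of 0.39. These terms overlap with the lists above and share loci among themselves.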

How the data were processed

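RNA-seq was made from pooled leaves, 1 library per condition. The authors trimmed single-end reads, removed duplicates with FastUniq and mapped the rest with clc_ref_assemble to the RAP-DB gene sequences (IRGSP, version 1.0). The deposited values used are raw read counts per gene sequence. The libraries were strand-specific, and use of strand in counting was not given in the sources used here. The 3 columns of the authors' log2 ratios and the 4 of length-normalized values were not used.

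Counts were divided by the column sum (52626188 to 60322263 reads in the 4 libraries) and 1 d was divided by control. With 1 library per side no test was made. Calls required 2-fold, and a count of 0 was taken as 3 reads. A simulated data set was used to check the calculation. Scaling factors for the alternatives came from DESeq2 1.42.0 and edgeR 4.0.16 run in R 4.3.3. Ratios and intervals were computed with scipy 1.17.1, pandas 2.3.3 and numpy 2.4.6 under Python 3.11.15, and drawn in matplotlib 3.10.9. Alternatives were the scaling, 1 read added, the read minimum, the counting interval and the handling of transcripts.

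The members and the 52 lists were chosen with earlier results of these data known. Lists were made from words of the annotation, 152 entries caught by mistake were removed after the annotation had been read, and 4 lists were added after values were seen. The genes named are the 15 highest and 15 lowest ratios with an annotated protein and at least 100 reads, up to 6 called members and the most abundant member of each list, genes the study names, the 10 largest gains and losses in CPM, and called loci with no read on 1 side. Not all are printed. Other list members and members of runs were chosen after their values were seen. Gene names follow the annotation, where many are given as similarity only, so they need not be the names of the rice genes. Promoters were not analysed here.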

Additional observations from a re-analysis of the deposited data

How the results depend on the processing

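No paired analysis was possible because each condition has 1 library, and for the same reason no library could be left out. The number of called loci depended on the read minimum. With at least 10 reads, 1435 of 30329 loci were called higher and 1283 lower, and with at least 200 reads 236 and 444 of 21469. Requiring the counting interval to lie wholly past 2-fold left 199 higher and 418 lower. The remaining alternatives, among them edgeR TMM (586 and 747), DESeq2 median of ratios (579 and 755) and 1 read added (587 and 713), kept both counts within 1.5 times. Of 191 named loci that were called, 6 lost the call without scaling, 1 with 1 read added (Os01g0908600) and 0 with edgeR TMM or DESeq2 factors. Leaving out the scaling lowers every ratio, and so each of the 52 list medians, by the same amount. The depth sets the limit for low loci, and differences between plants could not be measured.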
